A study of Mus musculus with 48 samples.

Results

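Potassium channel genes other than those of the A-type channel complex were followed in maps of N6-methyladenosine (m6A) from mouse hippocampus. The set held every protein-coding gene of the mouse annotation of build mm9 whose symbol starts with Kcn, without Kcnip1 to Kcnip4, Kcnd2, Kcnd3 and Kcnj13. It came to 87 genes of 22238 protein-coding symbols. Their bodies met 534 of the 81807 regions into which the peaks of all animals were joined.

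Potassium channels let potassium leave or enter a cell and so set its resting potential, the shape and rate of its spikes and the time it stays excitable. The Kcna, Kcnb, Kcnc, Kcnh and Kcnq genes encode pore subunits opened by voltage, Kcnj genes inward rectifiers, Kcnk genes the leak channels with tandem pore domains, and Kcnma and Kcnn genes channels opened by calcium. Kcnf, Kcng, Kcns and Kcnv proteins form no channel alone and modify Kcnb subunits, and Kcnab, Kcne and Kcnmb proteins are accessory subunits. m6A is a methyl mark on adenosines of RNA, laid down mostly in a GGAC-like context and densest in long exons and near stop codons.

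The animals were HdhQ7/Q111 mice (KI), heterozygous for an expanded CAG repeat in the mouse huntingtin gene, and HdhQ7/7 wild-type mice (WT), 8 or 5 months old. Trained mice were killed shortly after an object-place exploration session, and naive mice were not trained. Each of the 8 groups (KI trained, WT trained, KI naive and WT naive, at 8 and at 5 months) held 3 mice, with an m6A immunoprecipitate and an input library per mouse. The RNA was total RNA of the whole hippocampus, so fewer cells of a type and less RNA per cell cannot be told apart.

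Each peak list gave the stretches where the immunoprecipitate exceeded the input of that animal, with a fold enrichment over input. The lists held 22601 to 57293 peaks, and the group means ran from 48992 in KI naive mice at 8 months to 25767 in WT trained mice at 5 months. One region of Htt, at chr5:35104810-35105427, had a peak in all 12 KI mice and in 0 of the 12 WT mice. Peaks were present on 4 to 5 of 5 CA1 markers, 3 to 4 of 4 CA3 markers and 4 to 5 of 5 dentate gyrus markers in every animal, and on 0 to 3 of 5 interneuron markers, where Pvalb and Vip were never called. Choroid plexus markers with a peak ran from 1 to 7 of 9, with Ttr and Aqp1 never called.

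As an example of sequence, the GGAC nearest the summit is printed for 5 of the top-ranked regions. It is also printed for 4 regions called in every animal of one group and none of its counterpart. All were picked from regions with a GGAC within 150 bases of the summit. Each window is 24 bases of mm9 on the strand of the gene, with GGAC in capitals.
Kcnj11, chr7:53355805-53355828: ggagactagaGGACaagggctaga
Kcnk13, chr12:101299978-101300001: ggccaatgggGGACcccaccagaa
Kcnb2, chr1:15701592-15701615: aagtcaaaaaGGACagtagtcaag
Kcna1, chr6:126588975-126588998: ctgagatctaGGACacaacagaac
Kcnj3, chr2:55289689-55289712: tcaggggccaGGACagggcccgca
Kcnj6, chr16:94993201-94993224: ctggccccaaGGACctgacgccag
Kcng1, chr2:168093349-168093372: agtacagccaGGACtacacagaaa
Kcnab1, chr3:65026308-65026331: ataaaaagacGGACtgtacatgaa
Kcnh2, chr5:23831507-23831530: agcctcacatGGACtcacacatcg

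Of the 5 top-ranked windows, those of Kcnk13 and Kcnj3 had the A of GGAC closest to the summit, at −6 and 2 bases from it (negative is upstream). In Kcna1, Kcnb2 and Kcnj11 it was at −28, 40 and 127 bases. The Kcnj11 window lies 198 to 221 bases upstream of the annotated start of the gene. In Kcnj6, Kcng1, Kcnab1 and Kcnh2 the A was at −66, −37, −11 and −13 bases. For Kcnh5 and Kcnj2, no GGAC lay within 150 bases of the summit of the top-ranked region. Several regions called in every animal of one group and none of its counterpart also had none, among them those of Kcnma1 and Kcnd1.

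m6A peaks were found on most of these channel genes. Of the 87 genes, 75 had a peak in at least 1 animal and 58 (66.7%) in all 24, whereas 35.3% of all protein-coding genes had one in all 24. Among 18 genes of sodium, calcium and HCN channels the share was 88.9% (16 genes), and among the 6 genes of the A-type complex 83.3% (5 genes). Peaks were absent from 12 channel genes (13.8%), against 38% of all protein-coding genes. Whether a gene without a peak was expressed was not tested, since no input levels were used here.

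The families differed in how many of their genes were marked. All 4 Kcnc genes and both Kcnb genes had a peak in every animal, as did 9 of the 10 silent-subunit genes (Kcnf, Kcng, Kcns, Kcnv), 11 of 14 Kcnj genes and 6 of 8 Kcna genes. Of the 14 Kcnk genes, 8 had a peak in every animal and 4 (Kcnk7, Kcnk15, Kcnk16 and Kcnk18) in none. Of the 5 Kcne genes, only Kcne1l was called in all 24, Kcne2 in 5, Kcne3 in 13 and Kcne4 in 17, and Kcne1 in none. The other genes without a peak were Kcna7, Kcna10, Kcnj1, Kcnj15, Kcnmb3, Kcnn4 and Kcnv2. Kcnj1 and Kcnj15 encode inward rectifiers of kidney and other epithelia, and Kcnn4 the intermediate-conductance channel of blood and epithelial cells. All 8 Kcnh genes had a peak somewhere, but only 4 in every animal.

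**Figure D1:**
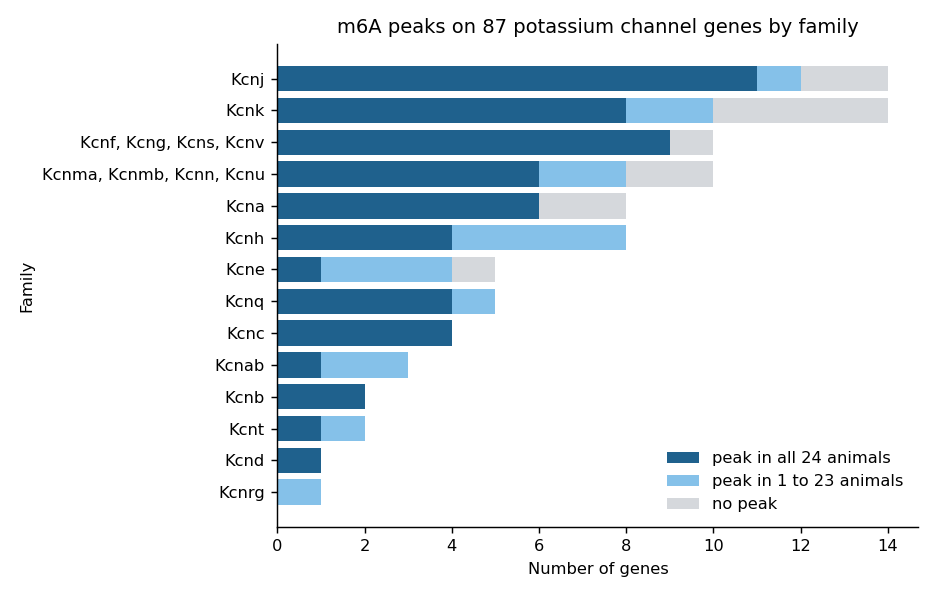
Number of genes (horizontal axis) in each potassium channel family (vertical axis), split into genes with a peak in all 24 animals, in 1 to 23 animals and in none. The Kcnj family holds the most genes called in every animal, 11 of 14, and all 4 Kcnc genes are called in every animal.

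A further 17 genes were called in 1 to 23 animals. Kcnab1, Kcnh2, Kcnh6, Kcnk9 and Kcnmb2 missed a peak in 1 animal, and Kcnj5, Kcnrg and Kcnmb1 had one in no more than 2. For Kcnab1, a joined region that met its body was called in all 24 animals, although in 1 animal no peak reached the body. Kcnh2, which encodes the hERG-type channel, held 12 regions, none of them called in every animal.

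The number of regions on a gene went with its length. Spearman's rho between length and number of regions was 0.69 over the 87 genes and 0.6 over all protein-coding genes, given as a description across genes, which share libraries. Median lengths were 26.4 kb and 15.5 kb. The genes with the most regions were Kcnh7 with 42 (491 kb), Kcnb2 with 35 (404 kb), Kcnn2 with 33 (417 kb), Kcnj6 with 31 (248 kb) and Kcnq5 with 30 (564 kb). Kcnh7 encodes an ERG-type channel, Kcnn2 the small-conductance channel SK2, Kcnj6 the G-protein-gated rectifier GIRK2 and Kcnq5 an M-current subunit.

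Kcnq1 had 25 regions, of which 20 lay between chr7:150405600-150481526, the span of listed peaks that the authors' tables also give to Kcnq1ot1. Kcnq1ot1 is a noncoding RNA transcribed from the opposite strand inside Kcnq1. Peaks carry no strand, so these 20 regions, 4 of them called in every animal, cannot be told apart between both RNAs.

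The number of channel genes with a peak varied less between animals than the number of peaks. A list held 199 to 382 peaks on these genes (285 ± 47.7, SD, n = 24), which was 0.66% to 0.96% of its peaks, and 63 to 71 of the 87 genes had at least 1 peak. At 8 months, KI trained mice had 265 ± 29.3 such peaks and WT trained mice 303 ± 38.4, and KI naive mice had 349 ± 54.3 and WT naive mice 269 ± 45.2 (SD, n = 3 each). At 5 months the means were 281 ± 27.3 in KI trained and 228 ± 35.9 in WT trained mice, and 318 ± 47.1 in KI naive and 272 ± 13.6 in WT naive mice. The groups high in channel peaks were high in all peaks: whole lists averaged 48992 in KI naive and 34843 in WT naive mice at 8 months, and 35543 in KI trained and 25767 in WT trained mice at 5 months. The part of list size in these counts was not tested beyond the setting with equal list sizes in the closing section.

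**Figure D2:**
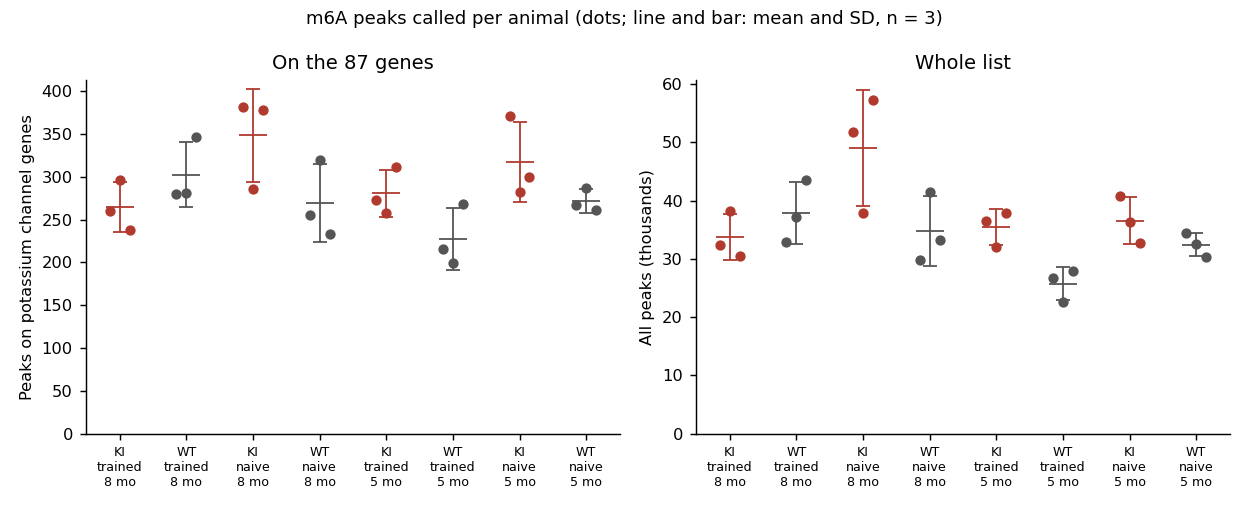
Peaks called per animal (dots) in the 8 groups, on the 87 channel genes (left, number of peaks) and in the whole list (right, number of peaks divided by 1000), with mean and SD of 3 animals, KI in red and WT in grey. KI naive mice at 8 months have the highest mean in both panels (349 and 48992 peaks), and WT trained mice at 5 months the lowest (228 and 25767).

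Summits on channel genes had a larger intronic share than those of all genes, a difference that was not tested. Over the 24 animals, 31.4 ± 3.94% of channel summits were in coding sequence, 18.9 ± 1.75% in the 3′UTR, 6.65 ± 1.23% in the 5′UTR and 43 ± 5.1% in introns. Over all protein-coding genes the shares were 40.4% coding, 22.7% 3′UTR, 6.24% 5′UTR and 30.7% intronic. A summit counted as intronic when it lay in a gene body outside the exons of protein-coding transcripts. Exons of other transcripts of the gene are thus included. The libraries were made from total RNA, and how much of it was unspliced was not tested.

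The peaks present in every animal were mostly exonic. Of the 534 regions, 112 (21%) were called in all 24 animals, against 16.9% of regions on protein-coding genes, and 112 in a single animal. Of the 112 called in all animals, 50 had their summit in coding sequence, 28 in the 3′UTR, 21 in introns and 5 in the 5′UTR. Another 5 lay upstream and 3 downstream of the annotated body, and 7 met a second annotated gene.

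The exons that held these summits were long. Among the 81 constant regions with an exonic summit and 1 gene, the exon had a median of 1673 bp (interquartile range 877 to 3380), 70.4% were in the last exon and 30.9% within 200 bases of the stop codon. For 8198 such regions on all genes the values were 1527 bp (807 to 2776), 66.4% and 33.4%. The channel genes thus sat close to the whole transcriptome on all 3 measures, which were not tested.

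GGAC stood within 101 bases centred on the summit in 45 of 104 constant channel regions (43.3%) on the gene's strand and in 32.7% on the opposite strand. In all 10004 such regions the shares were 49.6% and 24.3%. For GGACT they were 14.4% and 12.5% in channel genes, against 19.4% and 7.92% in all. Channel regions called in 3 to 21 animals held GGAC in 28.2% (17.8% on the opposite strand), and all such regions in 35.7% (24.2%). Intronic constant regions of channel genes held it in 5 of 21 (23.8%, opposite strand 19%), and coding ones in 25 of 50 (50%, opposite strand 40%). A match is a description of the letters and not a mapped site.

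The constant regions had a median percentile by −log10 p within their lists of 42.5 to 99.5 (median over regions 83.2), and 37 of 112 were at or above the 90th percentile.

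Among regions called in all 24 animals, Kcnj11, which encodes the pore of the ATP-sensitive channel, ranked highest, at percentile 99.5, with a region at chr7:53352483-53356253. Its fold enrichment was 2.05 at the lowest, 9.14 at the median and 21.3 at the highest over the 24 animals. The extremes were both in KI trained mice at 8 months (21.27, 2.05 and 10.81), so animals of 1 group covered the whole range. The region spans the annotated gene, but its summit lies 336 bases upstream of the annotated start. Kcnj4, the inward rectifier Kir2.3, had a region of the same percentile with its summit upstream of the gene (chr15:79335499-79336446), called in 23 animals, and its region called in all 24 (chr15:79314139-79316496, coding) had percentile 96, just below the 10 genes named here.

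Of the regions called in all 24, Kcnk13, a tandem-pore leak channel, followed at percentile 98.7 with a coding region at chr12:101298989-101300135, at 4.45, 12.2 and 21.4 fold (lowest, median, highest). Kcnb2, the delayed rectifier subunit Kv2.2, reached 98.4 with its coding region chr1:15699400-15702355, at 4.77, 8.8 and 13.8 fold. Kcna1, the subunit Kv1.1 of axons, reached 97.8 in the 3′UTR at chr6:126588460-126590325, at 3.93, 5.08 and 5.9 fold. Of these, Kcna1 had the narrowest range, with group means between 4.6 and 5.52 fold.

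Kcnh5, an EAG-type channel, reached percentile 97.5 in coding sequence (chr12:75997678-75999589), at 3.57, 8.88 and 13.8 fold. Kcnj2, the classical inward rectifier Kir2.1, reached the same percentile in coding sequence (chr11:110932816-110934800), at 3.99, 8.43 and 16.9 fold. Kcnj10, the rectifier Kir4.1 by which astrocytes take up potassium, reached 97.1 in the 3′UTR (chr1:174298905-174303533), at 3.81, 5.27 and 6.84 fold. For Kcnj10 all 8 group means lay between 4.79 and 5.66 fold.

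Kcna6, another axonal Kv1 subunit, reached 96.8 (chr6:126658357-126658898), at 2.8, 4.16 and 8.27 fold. Its summit counted as intronic, but the region starts close to the 3′ end of the annotated body, at 126658347. Kcnc4, which encodes Kv3.4, reached 96.6 in coding sequence (chr3:107250444-107251810), at 4.21, 6.1 and 10.4 fold. Kcnj3, the G-protein-gated rectifier GIRK1, reached 96.1 in coding sequence (chr2:55287844-55290350), at 2.5, 4.22 and 6.55 fold, and this region meets the noncoding gene Gm17595 on the opposite strand.

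**Figure D3:**
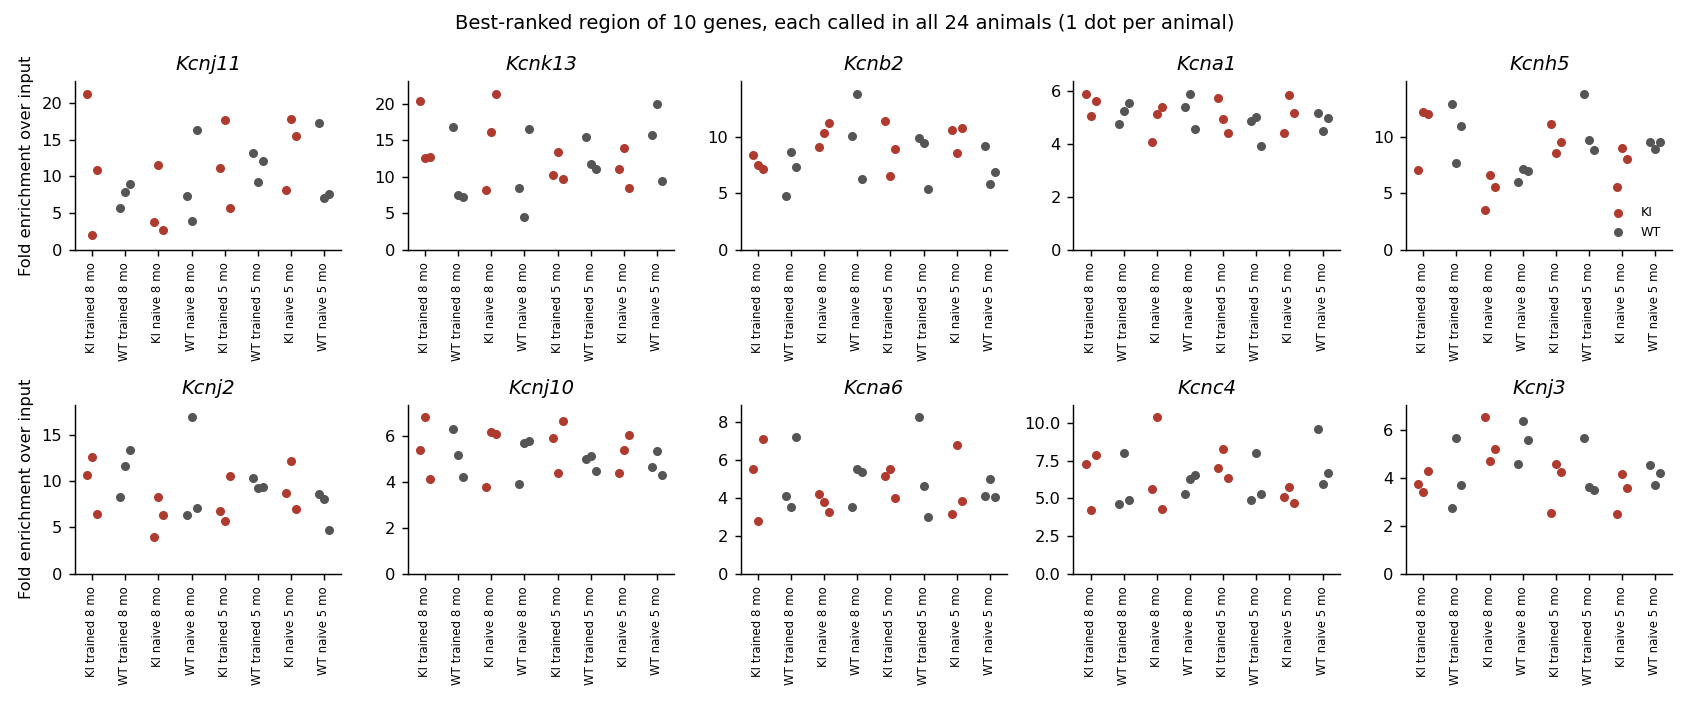
Fold enrichment over input (vertical axis, starting at 0) of the best peak in the top-ranked region of 10 channel genes, 1 dot per animal, in the 8 groups on the horizontal axis (KI red, WT grey). Kcna1 and Kcnj10 vary least (3.93 to 5.9 and 3.81 to 6.84 fold), and Kcnj11 ranges from 2.05 to 21.3 fold.

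The comparison of KI with WT mice asked whether the huntingtin mutation goes with other channel peaks. The design allows it in naive and trained mice at each age, where a region called in 3 of 3 animals of one group and 0 of 3 of the other is the largest difference possible. At 3 against 3 animals no exact test of a single region can go below p = 0.1, so these are counts without a test.

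In naive mice at 8 months, 6 channel regions of 422 were called in all KI and no WT mouse (1.42%, against 1.15% of all regions), and 0 in all WT and no KI mouse (0.0384%). The share among channel regions was near that of all regions. The 6 lay on Kcnab1 (2 introns), Kcnd1, Kcnh2, Kcnh5 and Kcnk4.

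The intronic Kcnab1 region chr3:65026160-65026466 had fold enrichments of 8.9, 4.98 and 8.43 in KI naive mice at 8 months and no peak in their 3 WT counterparts. Kcnab1 encodes the cytoplasmic beta subunit that speeds inactivation of Kv1 channels. The coding Kcnh2 region chr5:23830187-23830484 had 5.44, 3.58 and 6.39 in the same KI mice, and the intronic Kcnh5 region chr12:76274645-76274929 had 4.07, 6.84 and 7.09. The Kcnh5 region was called in 6 KI mice in all, against 0 WT mice. The coding Kcnk4 region chr19:7002501-7003151, on the gene of the mechanosensitive leak channel TRAAK, had 4.44, 5.41 and 3.23. A second Kcnab1 intron at chr3:64992313-64992600 had 3.63, 3.27 and 6.66. The Kcnd1 3′UTR region chrX:7413211-7413923 had 5.52, 6.76 and 4.13 and was also called in all 3 WT trained mice of that age.

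In naive mice at 5 months, 5 of 400 channel regions were called in all KI and no WT mouse (1.25%, against 0.726%), and 0 the other way (0.123%). The Kcnk1 coding region chr8:128548736-128549264, on the gene of the leak channel TWIK-1, had 7.47, 3.14 and 4.45 in KI and no peak in WT mice. It was called in 17 animals in all, including 3 of 3 WT naive mice at 8 months. The Kcnj6 intron chr16:94992895-94993266 had 4.81, 5.08 and 5.78 in KI and no peak in WT mice. The other regions were introns of Kcnmb2 (chr3:31856551-31856909), Kcnq1 (chr7:150426627-150427056) and Kcnn2 (chr18:45602456-45603350). The Kcnq1 region lies in the span shared with Kcnq1ot1.

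In trained mice at 8 months, 0 of 374 channel regions were called in all KI and no WT mouse (0.122% of all regions), and 1 in all WT and no KI mouse (0.585%). That region was an intron of Kcnma1, the large-conductance calcium-activated channel, at chr14:24277552-24277897, with 2.85, 1.82 and 5.92 in WT mice.

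In trained mice at 5 months, 3 of 338 were called in all KI and no WT mouse (0.888%, against 1.83%), and 0 the other way (0.0276%). The Kcng1 intron chr2:168093224-168093550 had 4.93, 8.91 and 3.26 in KI mice. The Kcnmb2 intron chr3:31848384-31848969 had 3.75, 5.97 and 7.04, and the Kcnj3 3′UTR region chr2:55448536-55449018 had 2.38, 2.18 and 2.63. WT trained mice at 5 months had no peak there and the fewest peaks of all groups.

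Trained mice were then set against naive mice within each genotype and age, again as counts without a test. In KI mice at 8 months, 1 of 419 channel regions was called in all trained and no naive mouse (0.239%, against 0.0404%), and 9 in all naive and no trained mouse (2.15%, against 1.51%). The region called in trained mice was an intron of Kcnq1 (chr7:150459424-150460074), with 2.26, 4.03 and 2.44, and it lies in the span shared with Kcnq1ot1. Of the 9, 3 were introns of Kcnj6. The regions with the highest mean −log10 q in naive mice were a Kcnq3 intron (chr15:65927425-65927867, fold enrichments 4.5, 5.84 and 3.49), a Kcnab1 intron (chr3:65100896-65101167, 6.39, 5.47 and 5.27) and the Kcnab1 intron at chr3:64992313-64992600.

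In WT mice at 8 months, 1 of 368 was called in all trained and no naive mouse (0.272%, against 0.557%), the Kcnd1 3′UTR region, with 5.34, 5.93 and 3.87 in trained mice. Another, a Kcnh7 intron (chr2:62729366-62729710), was called in all naive mice at 4, 4.06 and 8.89 and in no trained mouse (0.272%, against 0.178%).

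In KI mice at 5 months, 0 of 403 were called in all trained and no naive mouse (0.31% of all regions), and 4 in all naive and no trained mouse (0.993%, against 0.38%). These were the Kcnj6 intron chr16:94992895-94993266, the Kcnmb2 intron chr3:31856551-31856909, a Kcnq5 intron (chr1:21578017-21578461, 6.25, 3.71 and 3.99) and a Kcnh2 coding region (chr5:23831359-23831784, 6.38, 3.97 and 3.49).

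In WT mice at 5 months, 0 of 340 were called in all trained and no naive mouse (0.0483%), and 3 in all naive and no trained mouse (0.882%, against 1.06%). Among them were the Kcnma1 intron (2.05, 7.31 and 3.73 in naive mice) and a Kcnh7 coding region (chr2:62688447-62688864, 3.23, 2.24 and 2.34).

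Over the 8 comparisons these were 34 entries on 28 regions of 18 genes, of which 18 were intronic and 5 coding, and their lengths were 272 to 895 bp. The shares over all regions are those given above for each comparison. Channel regions called in 3 to 21 animals with a summit in 1 gene were also mostly intronic (139 of 202, with 37 coding). The Kcnj6 intron at chr16:94992895-94993266 was the only one entered in 3 comparisons. At 8 months it had a peak in 0 of 3 KI trained, 0 of 3 WT trained, 3 of 3 KI naive (6.48, 3.91 and 3.15) and 1 of 3 WT naive mice (4.9). At 5 months it had one in 0 of 3 KI trained, 0 of 3 WT trained, 3 of 3 KI naive and 0 of 3 WT naive mice. It was thus called in none of the 12 trained mice. Its calls in KI mice were fixed by the comparisons that entered it, as was its absence from WT naive mice at 5 months. Its calls in WT trained mice were not fixed in this way, but few WT naive mice had a peak there either.

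**Figure D4:**
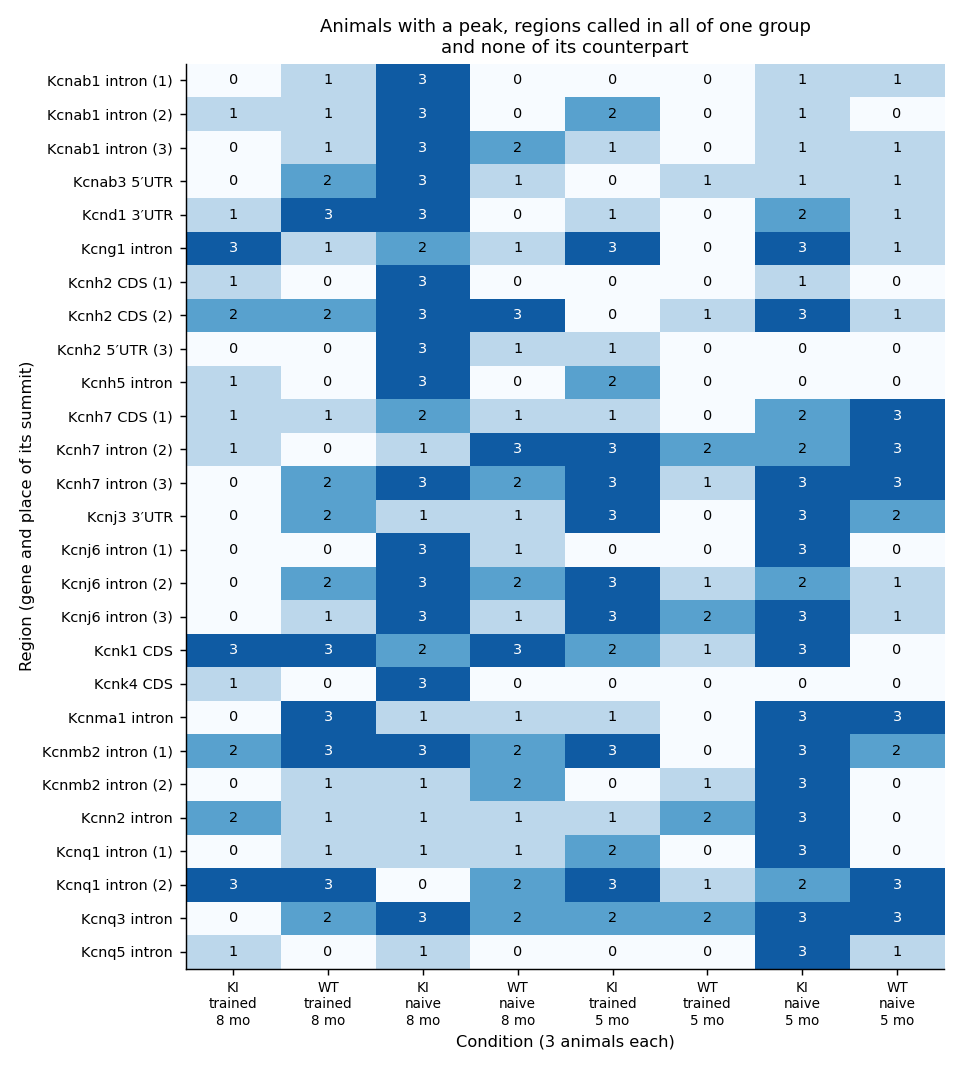
Number of animals (0 to 3) with a peak in channel regions called in all animals of one group and none of its counterpart, by region (rows) and group (columns, 3 animals each). Rows were chosen by such calls, so how often a group has a peak in 3 of 3 animals follows in part from the choice. The Kcnj6 intron entered in 3 comparisons has none in the 12 trained animals.

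Setting all 12 mice of one state against the 12 of the other gave no channel region past an adjusted threshold. Presence of a peak was compared with a 2-sided Fisher's exact test in the 207 channel regions called in 3 to 21 animals, with Benjamini-Hochberg adjustment over all 35110 such regions. At an adjusted p of 0.05, 0 channel regions were called for genotype (0.00285% of all regions), 0 for training (0%) and 0 for age (0%).

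Before adjustment, at p under 0.05, 6 channel regions were called more often in KI mice (1.72% of all regions) and 0 more often in WT mice (0.0684%). For training the counts were 0 regions more often in trained mice (0.128%) and 3 more often in naive mice (1.31%). For age they were 12 more often at 8 months (8.86%) and 1 more often at 5 months (0.937%). The 12 regions of 207 called more often at 8 months are a smaller share than that of all regions, and none of these counts was tested against its background.

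The smallest genotype p belonged to the Kcng1 intron chr2:168093224-168093550, whose protein is a silent subunit. Peaks were present there in 11 KI mice and in 3 WT mice, of 12 each (exact p = 0.00276, adjusted p = 1). In trained KI mice it had fold enrichments of 6.84, 2.92 and 3.68 at 8 months and 4.93, 8.91 and 3.26 at 5 months, and in naive KI mice 2.78 and 2.36 at 8 months and 6.95, 6.26 and 4.36 at 5 months. The 3 WT mice with a peak had 5.85 (trained, 8 months), 3.36 (naive, 8 months) and 8.72 (naive, 5 months), so peak heights overlapped where peaks were called. The Kcnh5 intron chr12:76274645-76274929 and a second Kcnj6 intron (chr16:95136796-95137116) were each called in 6 KI and 0 WT mice (exact p = 0.0137, adjusted p = 1). Calls in a single comparison had already entered the Kcng1 and Kcnh5 introns above, so their p-values are no further support.

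For training, the Kcnj6 intron chr16:94992895-94993266 came first, with 0 of 12 trained and 7 of 12 naive mice (exact p = 0.00458, adjusted p = 1). Calls in KI mice had already entered this region above, so its p is no further support. A Kcnn2 intron on chromosome 18 was called in 5 trained and 11 naive mice (exact p = 0.0272, adjusted p = 1).

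For age, a Kcng4 coding region (chr8:122156818-122157645) was called in 11 mice of 8 months and 3 of 5 months, and a Kcnb2 intron (chr1:15526635-15526936) in 3 of 8 months and 11 of 5 months (exact p = 0.00276, adjusted p = 0.256 for both).

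The height of constant peaks was compared with limma on log2 fold enrichment, centred per animal, over the 12170 regions called in all 24 animals, of which 112 were channel regions. In 13 contrasts 0 channel regions passed an adjusted p of 0.05. Over all regions, 1 passed for trained minus naive (0.00822%) and 0 (0%) in each of the other 12 contrasts. Between 3 and 11 channel regions had an unadjusted p under 0.05, where all regions gave 3.05% to 7.71%. The medians over channel regions lay between −0.065 and 0.087, and those over all regions between −0.008 and 0.007. Centring each animal on its median over all these regions holds the latter near 0, so the ranges cannot be set against each other.

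The region with the lowest p in a single comparison of KI with WT mice lay in the 5′UTR of Kcnk2 (chr1:191166956-191168726), the gene of the leak channel TREK-1. Fold enrichment was 7.72, 8.54 and 10.76 in KI naive and 2.53, 2.82 and 3.27 in WT naive mice at 5 months. The log2 difference was 1.66 (SE 0.46, limma adjusted p = 0.999). The groups did not overlap, but the region was chosen for its low p, so this is no further support. In trained mice of that age the values overlapped, at 3.3, 6.32 and 3.95 in KI and 5.78, 2.59 and 7.32 in WT mice. The difference of the training responses, KI minus WT, was −1.96 (SE 0.65, limma adjusted p = 0.999). At 8 months KI and WT values overlapped in both states.

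For training, the Kcnh5 coding region chr12:75997678-75999589 had 7.08, 12.17 and 11.98 in KI trained and 3.57, 6.58 and 5.55 in KI naive mice at 8 months, a log2 difference of 0.99 (SE 0.30, limma adjusted p = 0.694). Averaged over genotypes and ages, trained minus naive was 0.54 (SE 0.15, limma adjusted p = 0.976). Another Kcnh5 coding region, chr12:76215181-76215780, had 4.14, 3.53 and 4.51 in WT trained and 8.91, 11.8 and 6.96 in WT naive mice at 5 months (−1.07, SE 0.29, limma adjusted p = 1). At 8 months it had 10.98, 7.57 and 12.87 in WT trained and 5.42, 7.57 and 5.56 in WT naive mice (0.74, SE 0.29, limma adjusted p = 1). The 2 ages thus gave opposite signs, and neither passed. In KI mice at 5 months, the Kcna4 coding region chr2:107134121-107137343 had 7.46, 6.06 and 5.45 in trained and 2.23, 4.89 and 2.47 in naive mice (0.98, SE 0.30, limma adjusted p = 1).

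The regions with the lowest p in other contrasts did not pass either. A Kcnh7 intron (chr2:62961565-62962018) was at −0.45 for KI minus WT over all settings (SE 0.16, limma adjusted p = 0.996) and at −0.71 in trained mice at 5 months (SE 0.32, adjusted p = 0.998). A Kcnb2 intron (chr1:15389411-15389843) was at −0.89 for KI minus WT in naive mice at 8 months (SE 0.31, limma adjusted p = 0.881). Its values were 2.18, 2.97 and 2.83 fold in KI and 5.79, 3.23 and 6.12 fold in WT mice. The Kcnh5 5′UTR region chr12:76277458-76278373 was at 0.76 in trained mice at 8 months (SE 0.31, adjusted p = 0.998), with 8.02, 7.78 and 6.22 fold in KI and 4.94, 3.06 and 5.07 fold in WT mice. A Kcnv1 coding region (chr15:44945725-44946742) was at −0.49 for 8 minus 5 months (SE 0.13, adjusted p = 0.307).

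The 10 comparison tables deposited with the data list peaks that passed an unadjusted threshold, with a mean log2 level of reads in each group. Channel genes had 661 entries on 69 genes, of which 28 lay outside the annotated bodies, 23 of them at Kcng2, whose body in this annotation is 0.705 kb. A listed peak already passed a threshold, so shares are given of the regions called in at least 2 of 3 animals of a group, without a test.

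For KI against WT mice, listed channel peaks were more often higher in KI in 3 of 4 tables. In trained mice at 8 months 61 were higher and 26 lower in KI, which met 23.3% of channel regions as higher (11.7% of all) and 10.1% as lower (8.41%). In naive mice at 8 months 50 were higher and 19 lower, with 16.1% higher (10.2%) and 6.79% lower (5.84%). In trained mice at 5 months 44 were higher and 19 lower, with 16.9% higher (14.2%) and 7.85% lower (3.88%). In naive mice at 5 months 22 were higher and 36 lower, with 7.07% higher (6.04%) and 12% lower (12.4%). The channel directions followed those of all listed peaks, of which 58.5%, 63.8%, 78.7% and 32.7% were higher in KI in the order just given.

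By family, KI against WT trained mice at 8 months gave 16 Kcnj peaks higher and 3 lower, 10 Kcnc peaks higher and 2 lower, and 10 silent-subunit peaks higher and 1 lower. Kcnh genes had 9 higher and 6 lower, Kcnb and Kcnk genes each had 5 higher, with 1 and 3 lower in that order, and Kcna, Kcnq and Kcnab genes had 5 or fewer listed peaks each. Calcium-activated channel genes had 1 higher and 6 lower. Direction in this table differed by part of the transcript. Of exonic channel peaks 43 were higher and 9 lower, and of intronic ones 11 were higher and 15 lower, while among all listed peaks 68.4% of exonic and 37.6% of intronic ones were higher. Whether a family differed from other peaks of the same part was not tested.

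For trained against naive mice, listed channel peaks were more often lower in trained mice in all 6 tables. In KI mice at 8 months 24 were higher and 49 lower, with 8.48% of regions higher (7.93% of all) and 15.2% lower (9.52%). In WT mice at 8 months 31 were higher and 45 lower, with 11% higher (11.5%) and 17.3% lower (11.7%). In KI mice at 5 months 28 were higher and 61 lower, with 9.31% higher (11.3%) and 20.3% lower (11.1%). In WT mice at 5 months 6 were higher and 47 lower, with 2.54% higher (3.28%) and 19.5% lower (17.2%). Over both genotypes, 21 were higher and 31 lower at 8 months, with 6.29% higher (8.22%) and 9.6% lower (8.96%). At 5 months 18 were higher and 23 lower, with 5.39% higher (5.95%) and 6.73% lower (5.6%). Of all listed peaks, 45.3% in KI and 49.6% in WT mice at 8 months were higher in trained mice, and 50.4% and 15.9% at 5 months. Over both genotypes the shares were 47.9% at 8 months and 51.6% at 5 months. Fold enrichment over input in the constant channel regions did not lean the same way throughout. Its log2 difference, trained minus naive, was above 0 in 58% of them in KI mice at 8 months (50.7% of all constant regions). In WT mice of that age the share was 41.1% (50.4%). At 5 months the shares were 56.2% (48.9%) in KI and 63.4% (50.5%) in WT mice. Regions share the same animals, and these shares were not tested. Tables that share animals are not independent of each other. The order of the group means in these tables was taken from the study's design text and checked against the peak calls. Among listed peaks whose calls differed by at least 3 animals, or by at least 4 in the tables of both genotypes, the level was higher on the side with more calls in 94% to 99.5%, with 98.6% and 94.4% in the tables of both genotypes at 8 and 5 months.

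The part of the transcript went with direction in some tables. In KI mice at 5 months, 7 intronic channel peaks were higher and 34 lower in trained mice, and 17 exonic ones higher and 23 lower. Among all listed peaks of that table, 28.8% of intronic and 62.3% of exonic ones were higher. In WT mice at 8 months, 20 intronic channel peaks were higher and 8 lower in trained mice, and 8 exonic ones higher and 29 lower, with 66% of all intronic and 41.6% of all exonic peaks higher.

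**Figure D5:**
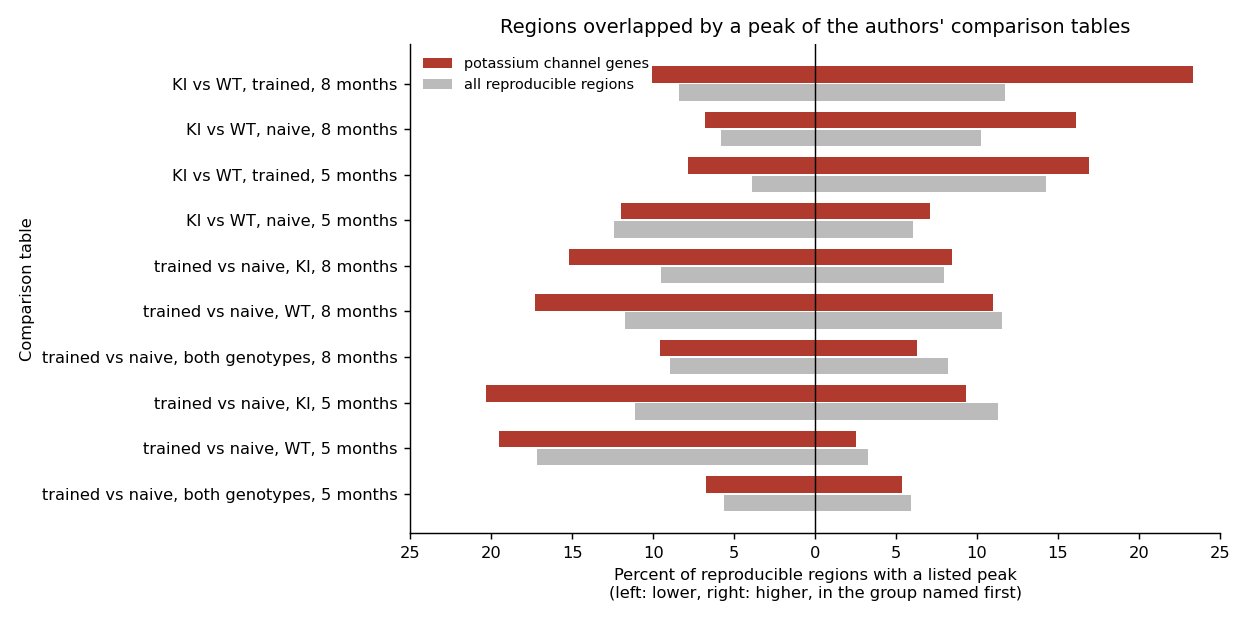
Percent of reproducible regions (horizontal axis, called in at least 2 of 3 animals of a group) overlapped by a peak of each comparison table (vertical axis), right of 0 where the level is higher and left where it is lower in the group named first, for channel genes (red) and all regions (grey). In KI against WT trained mice at 8 months 23.3% of channel regions are on the higher side, against 11.7% of all.

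Kcnh7, Kcnj6, Kcnn2, Kcng2, Kcnk2 and Kcnc2 were listed in all 10 tables. Kcnh7 had 50 listed peaks, 12 higher and 38 lower in the KI or the trained group, and Kcnk2 had 27, 7 higher and 20 lower. Kcnj6 had 41 (23 higher and 18 lower), Kcnn2 37 (17 and 20), Kcng2 29 (18 and 11) and Kcnc2, the fast delayed rectifier Kv3.2, 22 (13 and 9). In the 4 tables of KI against WT mice, all 12 listed peaks named Kcng2 were higher in KI, against 32.7% to 78.7% of all listed peaks. Of the 29 entries named Kcng2 in the 10 tables, 23 lay outside its annotated body, and whether they belong to Kcng2 was not tested. Peaks of the same stretch can recur in several tables.

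The Kcnj6 intron without a peak in trained mice was listed in 3 tables. The authors' mean was 4.23 in KI trained and 6.73 in KI naive mice at 5 months, and 4.03 and 5.5 in the same order at 8 months, where the listed peak starts at 94993018. Among naive mice of 5 months, KI had an authors' mean of 6.75, against 5.85 for WT. Here the levels in reads, which come from the same libraries, ran the same way as the calls. At a Kcnk2 peak (chr1:191163766-191164108) they did not, since the authors' mean was −0.16 in KI trained and 4.65 in WT trained mice at 5 months, while a peak was called in 2 of 3 mice of each group.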

How the data were processed

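The authors trimmed reads with BBDuk, aligned them to mm9 with STAR 2.7.3a, kept uniquely mapped reads outside repeats and called peaks with MACS2 2.2.6 for the immunoprecipitate of each animal against its input. The deposited lists give a fold enrichment (a ratio over input), −log10 p and q-values and an integer score per peak, and no strand. The 10 deposited comparison tables came from DiffBind 2.8.0 and hold the mean log2 read level of each group, which was used, and the authors' fold changes and p-values, which were not. Of the 48 libraries, the inputs enter only through the peak lists, and the study's methods give only an approximate depth common to the libraries. The lists hold no read counts per peak, so no counting intervals were computed.

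Peaks of the 24 animals were joined where they overlapped by at least 1 bp. Gene bodies came from the GENCODE annotation of the same build. Presence was tested with Fisher's exact test (SciPy 1.17.1, Python 3.11.15, pandas 2.3.3, NumPy 2.4.6), for which pooling animals over the other factors assumes that they are exchangeable. Log2 fold enrichment was tested with limma 3.58.1 in R 4.3.3 over all 8 groups. Both were adjusted by Benjamini-Hochberg over all regions and tested on simulated data. Figures were drawn with matplotlib 3.10.9.

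The genes and lists were chosen with earlier results of these data known. Named were the 10 genes ranking highest among regions called in all animals, regions called in 3 of 3 against 0 of 3 animals (all when at most 6 in a comparison, otherwise the top 3 per direction by −log10 q), the 3 lowest Fisher p-values per factor, the lowest limma p per contrast, the 5 genes in most tables with ties, and genes without a peak. Alternatives were stricter peak thresholds, equal list sizes, another joining overlap, other scalings and leaving out each animal. A few results that this rule names are not reported here.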

Additional observations from a re-analysis of the deposited data

How the results depend on the processing

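No channel region passed the adjusted threshold of the Fisher or the limma test under any alternative run, or without any single animal. Signs were followed only for the region with the lowest p in each limma contrast. None changed, but regions chosen in this way tend to keep their sign. Sizes moved under the alternatives, which include ranks on their own scale. The Kcnk2 difference of 1.66 ran from 0.53 to 1.67, and its training response difference of −1.96 from −2.17 to −0.15. The counts of regions called in 3 of 3 against 0 of 3 animals did move. With peaks of −log10 q of at least 3, KI against WT trained mice at 5 months gave 1 region, as did trained against naive WT mice at 5 months. At −log10 q of at least 5, KI against WT gave 2 in naive and 1 in trained mice at 5 months and 0 in trained mice at 8 months, trained against naive gave 4 in KI and 1 in WT mice at 8 months and 1 in WT mice at 5 months, and 65.2 channel genes had a peak per animal. With the 22601 best peaks of every animal, KI against WT gave 1 in naive and 0 in trained mice at 5 months and 2 in trained mice at 8 months. Trained against naive then gave 2 in KI and 0 in WT mice at 8 months, while at 5 months KI mice gave 0 and WT mice 1, with 62.9 channel genes per animal and 0.885% of peaks. In naive mice at 8 months, KI against WT stayed between 4 and 6 under these settings.

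Leaving out 1 animal asks for 2 of 2 or 3 of 3 against none, so by construction it can only add regions. Counts were then 9 to 25 for KI against WT naive mice at 8 months (25 without KI naive replicate 2), 6 to 16 for naive mice at 5 months (16 without KI naive replicate 2), 2 to 9 for trained mice at 8 months (9 without WT trained replicate 1) and 3 to 12 for trained mice at 5 months (12 without KI trained replicate 2). For trained against naive they were 13 to 22 in KI (22 without KI naive replicate 2) and 3 to 7 in WT mice at 8 months, and 6 to 11 in KI and 4 to 10 in WT mice at 5 months. No paired analysis was possible because the labels give each animal its own number. Fold enrichments rest on 3 animals per group, and a peak absent from a list may lie just under the calling threshold.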
